A study of Rattus norvegicus with 18 samples.

Results

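Leukocytes attach to a surface through pairs of adhesion molecules, and 10 genes of these pairs are described here in rat astrocytes and microglia. They are Icam1, Vcam1 and Icam2, the immunoglobulin-family ligands, Sele and Selp, the selectins, and the integrin subunits Itgal, Itgam, Itgb2, Itga4 and Itga5. They were chosen by name, and their symbols were found as 10 of the 17307 gene symbols in the astrocyte tables and 10 of the 17327 in the microglia tables. In both cell types 8 of the 10 had enough counts to be tested, and Sele and Selp did not.

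The study asked how the fibrils of the peptides Aβ42 and Aβ40, which form deposits in Alzheimer's disease, change gene expression in glia. Primary astrocytes and primary microglia, isolated from Sprague-Dawley rat pups at postnatal day 2, were kept for 3 h without serum and then left without fibrils (control) or given Aβ42 or Aβ40 fibrils at 25 µM for 24 h. Messenger RNA was sequenced in 18 libraries, 3 in each of the 6 groups. The sex of the pups and how many were pooled are not stated, nor is whether replicates are separate cultures, so that p-values measure only the spread between these libraries.

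For the astrocytes, replicates 1, 2 and 3 held 3674043, 3949126 and 13768995 gene counts without fibrils, 14839572, 10120352 and 8333014 with Aβ42 and 9574779, 19013919 and 15302150 with Aβ40. For the microglia these totals were 8249339, 5098145 and 6648595 in the control libraries, 2613723, 22274367 and 17687416 with Aβ42 and 4104702, 4425805 and 2271834 with Aβ40. Levels are given in CPM, the counts of a gene relative to the library total after TMM scaling within a cell type unless stated otherwise. The detection limit of 3 counts of the unscaled total lay between 0.158 and 0.817 CPM in the astrocyte libraries and between 0.135 and 1.32 CPM in the microglia libraries. Such limits, and the intervals of ratios of counts given further on, cover counting error only. Gene lengths were not used, so levels are compared between libraries and not between genes, and a marker named as the largest part of a sum is so in CPM alone.

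One library stood apart from its label. Across 10837 genes, which are not independent replicates, microglia Aβ42 replicate 1 had a mean correlation of 0.961 with the other Aβ42 libraries and of 0.978 with the Aβ40 libraries. Replicates 2 and 3 of that group had 0.979 and 0.978 within the group and 0.957 and 0.956 with Aβ40. On the second principal component of the microglia libraries it lay at −15.2, beside the Aβ40 libraries at −17.6, −13.9 and −33.3, while replicates 2 and 3 lay at 37.2 and 38.4. With 2613723 counts it was also, like the Aβ40 libraries (4104702, 4425805 and 2271834), among the shallowest microglia libraries. Replicates 2 and 3 (22274367 and 17687416) were the deepest. The part of depth in its likeness to the Aβ40 libraries was not tested. The library is labelled Aβ42 and is kept under that label. The changes of tested members with Aβ42 in microglia, the counts of the lists and the largest changes in them with Aβ42 are also given without it. The marker values are given only with it. Among the astrocytes, control replicate 2 lay at −50.3 on the second component and the other control libraries at 26.9 and 27.2. Its mean correlation within the control group was 0.947, against 0.965 and 0.964. Of its counts 34.2% were not assigned to a gene, against 28.9% and 28.7% in the other control libraries. The fibril-treated astrocyte libraries had 26.0% to 27.6%. The part of this in its position was not tested.

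Icam1, Icam2 and Vcam1 are the surface proteins to which leukocyte integrins bind. Icam1 and Icam2 are bound by the integrin made of the Itgal and Itgb2 subunits, and Icam1 also by the one made of Itgam and Itgb2, which is complement receptor CR3 as well. Vcam1 is bound by the integrin of Itga4 and Itgb1, while Itga5 with Itgb1 is the main receptor for fibronectin. Sele and Selp are the selectins of activated endothelium, Selp also of platelets, and begin the rolling of leukocytes along a vessel. Inflammatory cytokines raise ICAM1 and VCAM1 on endothelium and astrocytes, and microglia carry the Itgb2 integrins.

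The cell types were checked against markers. Summed over 8 astrocyte markers the control astrocytes held 7971 ± 633 CPM (mean ± SD, n = 3), with Gfap the largest part of the mean, those with Aβ42 5361 ± 142 and those with Aβ40 5879 ± 169.8. Of the 8, 2 were higher and 5 lower with Aβ42, and 3 higher and 5 lower with Aβ40. The control microglia held 212 ± 9.92 CPM of these. Beside these and the marker counts that follow, 16.5% of all genes were higher and 20.4% lower in astrocytes with Aβ42. With Aβ40 the shares there were 14.9% and 18.4%. In microglia they were 27.1% and 26.6% with Aβ42 and 19.6% and 21.4% with Aβ40. Markers of the oligodendrocyte lineage, 6 genes, summed to 1427 ± 155 CPM in control astrocytes, 947 ± 7.23 with Aβ42 and 993 ± 36.2 with Aβ40. In the microglia they held 1844 ± 99.3, 2116 ± 226 and 2116 ± 235 CPM, so that both cultures held RNA of these genes. Of the 6, 4 were lower in astrocytes with each fibril and none higher, and in microglia 3 were higher and 1 lower with each. The 7 markers of fibroblasts and mural cells summed to 199.6 ± 21.8, 187 ± 23.5 and 201 ± 20.04 CPM in the astrocytes (control, Aβ42, Aβ40) and 82.7 ± 11.5, 146 ± 9.53 and 123 ± 1.75 in the microglia. Of 6 tested in astrocytes 1 was higher and 2 lower with each fibril, and of 5 in microglia 3 were higher and 2 lower with Aβ42 and 2 and 2 with Aβ40. The 4 neuronal markers summed to 51.7 ± 11.6, 27.9 ± 4.59 and 30.4 ± 2.65 CPM in the astrocytes, 3 of them lower with each fibril, and 160.4 ± 8.54, 211 ± 12.9 and 204 ± 9.04 in the microglia, where 1 was higher with each fibril and none lower. The medians there were −0.13 and 0.30 on the log2 scale, and most of the sum came from 1 gene. The part of such cells in the values of the members was not tested. Summed over 10 microglial markers the control microglia held 6412 ± 511 CPM, with Csf1r the largest part, and the control astrocytes 379.7 ± 30.9 CPM. The astrocyte libraries thus held some RNA of microglial marker genes, and all 10 of these genes had counts in each astrocyte group. Endothelial markers, 9 genes, summed to 21.6 ± 1.80 CPM in control astrocytes, where Cldn5 and Emcn had no counts and Vwf was the largest part, and to 16.1 ± 1.04 with Aβ42 and 17.4 ± 1.496 with Aβ40. Of 5 tested there 1 was higher and 2 lower with Aβ42, and 0 and 1 with Aβ40. In control microglia they summed to 191 ± 1.72 CPM, of which Flt1 held 157 CPM, and Cldn5 and Emcn again had none. The lymphocyte genes Cd3e and Cd3g had 0 counts in every library of both cell types. The 6 lymphocyte and neutrophil markers present in the tables, of 7, summed to 0.104 ± 0.0974 CPM in control microglia, 9.19 ± 4.999 with Aβ42 and 9.78 ± 2.76 with Aβ40, most of it from S100a8 and S100a9.

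In the astrocytes 3 of the 8 tested members were higher and 4 lower with Aβ42 than in the control (edgeR, adjusted p under 0.05 at any fold, the threshold used throughout), where 16.5% and 20.4% of all 11690 tested genes were. With Aβ40 3 were higher and 4 lower, against 14.9% and 18.4% of all genes. Icam1, Vcam1 and Itga5 rose with each fibril, and Itgal, Itgam, Itgb2 and Itga4 fell. In the microglia 5 members were higher and 2 lower with Aβ42, against 27.1% and 26.6% of 10837 genes, and 5 higher and 2 lower with Aβ40, against 19.6% and 21.4%. There Icam1, Vcam1, Itga5, Itgal and Itgam rose with each fibril, and Itga4 and Icam2 fell. A rise of 5-fold or more was called for 2 members in each of these 4 comparisons, for Icam1 and Vcam1 in astrocytes and Vcam1 and Itga5 in microglia. Of all genes 3.03% rose that much in astrocytes with Aβ42, 2.82% with Aβ40, and in microglia 3.69% with Aβ42 and 3.36% with Aβ40. A fall of that size was called for 1 member, Itga4, in each, and for 3.24% and 2.6% of all genes in astrocytes and 2.57% and 2.47% in microglia with Aβ42 and Aβ40. The Aβ42 and Aβ40 comparisons of a cell type share their 3 control libraries, so they are not independent of each other.

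**Figure D1:**
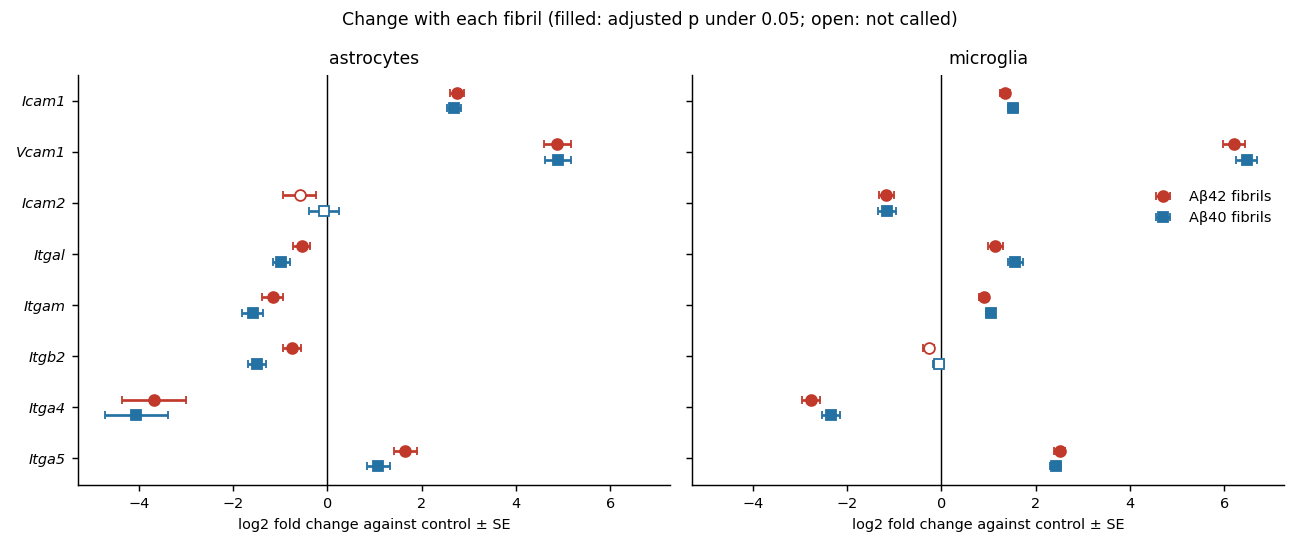
Log2 fold change of each tested member with its standard error, for both fibrils against control in astrocytes and in microglia (edgeR, 9 libraries per cell type). Vcam1 has the largest rise in each panel and Itga4 the largest fall, and Itgal and Itgam lie on opposite sides of 0 in the cell types.

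Since Icam1, Vcam1 and Itga5 rose and Itga4 fell in both cell types, and Itgam moved differently in them, the promoters of these 5 genes are shown. They are from RefSeq, assembly GRCr8, 250 bases before to 50 after the start of the gene, 5′ to 3′ on the gene's strand, and were found for 6 of the 10 members. None was listed for Icam2, Selp, Itgal and Itgb2. Capitals mark matches, on either strand, to an NF-kB-like motif GGNNNTTCC, the AP-1 motif TGANTCA or the PU.1 (ETS) core GAGGAA. Of all 33469 promoter windows in the RefSeq table, 18.3%, 7.33% and 27.6% hold them. The windows lie at chr8:27829595-27829894 (+ strand) for Icam1, chr2:206742734-206743033 (− strand) for Vcam1, chr7:136381256-136381555 (− strand) for Itga5, chr3:84569765-84570064 (+ strand) for Itga4 and chr1:192089342-192089641 (+ strand) for Itgam.
Icam1: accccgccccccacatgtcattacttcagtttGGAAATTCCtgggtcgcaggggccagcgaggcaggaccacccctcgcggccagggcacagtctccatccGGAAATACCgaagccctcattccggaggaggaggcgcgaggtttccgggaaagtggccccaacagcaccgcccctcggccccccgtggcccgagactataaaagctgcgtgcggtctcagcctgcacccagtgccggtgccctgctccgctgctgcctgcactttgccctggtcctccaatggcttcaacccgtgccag
Vcam1: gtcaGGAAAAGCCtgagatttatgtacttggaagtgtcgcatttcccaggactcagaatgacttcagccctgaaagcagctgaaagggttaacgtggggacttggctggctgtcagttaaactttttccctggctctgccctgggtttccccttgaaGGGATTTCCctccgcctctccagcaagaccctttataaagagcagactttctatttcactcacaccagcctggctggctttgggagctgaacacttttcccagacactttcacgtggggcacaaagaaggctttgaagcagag
Itga5: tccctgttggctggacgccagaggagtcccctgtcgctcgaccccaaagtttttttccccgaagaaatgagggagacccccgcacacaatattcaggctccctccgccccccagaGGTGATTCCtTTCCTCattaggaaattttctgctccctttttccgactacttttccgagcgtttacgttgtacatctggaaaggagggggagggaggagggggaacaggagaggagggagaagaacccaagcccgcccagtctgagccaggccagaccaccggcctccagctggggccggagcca
Itga4: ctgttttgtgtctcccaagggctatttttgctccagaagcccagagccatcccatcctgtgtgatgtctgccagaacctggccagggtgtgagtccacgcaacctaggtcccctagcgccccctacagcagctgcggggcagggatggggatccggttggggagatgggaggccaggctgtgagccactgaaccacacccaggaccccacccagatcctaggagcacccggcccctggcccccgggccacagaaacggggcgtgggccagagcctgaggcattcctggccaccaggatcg
Itgam: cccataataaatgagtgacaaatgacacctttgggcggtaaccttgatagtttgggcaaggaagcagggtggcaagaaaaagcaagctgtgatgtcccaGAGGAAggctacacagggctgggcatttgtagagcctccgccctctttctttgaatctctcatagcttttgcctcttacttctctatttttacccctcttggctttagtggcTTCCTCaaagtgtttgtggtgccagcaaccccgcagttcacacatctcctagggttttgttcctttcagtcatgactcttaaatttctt

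In the Icam1 window the NF-kB-like letters occur at 2 places, 218 and 149 bases before the start, the former on both strands. The Vcam1 window holds them at 2 places, 246 and 93 bases before the start. The Itga5 window holds them once, 135 bases before the start, with a PU.1 core at 125 bases. The Itgam window holds the PU.1 core at 2 places, 151 and 39 bases before the start, and the Itga4 window and that of Sele hold none of the motifs. No window of a member held the AP-1 letters. A match is a description of the letters, not a binding site, and factor binding was not measured. The counts themselves were made on the older assembly rn5.

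Vcam1, the ligand of the Itga4 integrin, had the largest rise of the members in every comparison of fibrils with control. In the astrocytes it measured 43.7, 76.8 and 33.0 CPM in the control libraries, 1372, 1509 and 1572 with Aβ42 and 1568, 1415 and 1519.7 with Aβ40. All 6 fibril libraries lay far above the 3 control libraries, and those of the fibrils overlapped. The rise was 29.4-fold with Aβ42 (log2 4.88 ± 0.28, SE, adjusted p = 2.62e-07) and 29.7-fold with Aβ40 (log2 4.89 ± 0.28, adjusted p = 2.87e-07). The microglia started from 4.95, 2.90 and 2.29 CPM, which are 42, 15 and 15 counts, and reached 307, 252 and 224 CPM with Aβ42 and 299.7, 304 and 338 with Aβ40. Here too the control libraries lay below all fibril libraries. The gene rose 73.8-fold with Aβ42 (log2 6.21 ± 0.23, adjusted p = 1.13e-09) and 89.1-fold with Aβ40 (log2 6.48 ± 0.23, adjusted p = 1.24e-09), and without microglia Aβ42 replicate 1 the former was 6.06 on the log2 scale.

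Icam1, the ligand of the Itgb2 integrins, also rose in both cell types. Its levels in the astrocytes were 93.0, 67.5 and 94.0 CPM in the control libraries, 598, 581 and 524 with Aβ42 and 518, 566 and 563 with Aβ40. The 6 fibril libraries lay within a narrow range and above all control libraries. That was a rise of 6.68-fold with Aβ42 (log2 2.74 ± 0.15, adjusted p = 1.64e-07) and 6.46-fold with Aβ40 (log2 2.69 ± 0.15, adjusted p = 2.06e-07). Control microglia held 269.5, 221 and 218 CPM, and fibril-treated microglia 584, 599 and 619.6 with Aβ42 and 639, 707 and 679.8 with Aβ40. Again the groups with and without fibrils did not overlap, and every Aβ40 library was above every Aβ42 library. The gene rose 2.54-fold with Aβ42 (log2 1.35 ± 0.11, adjusted p = 6.55e-07) and 2.86-fold with Aβ40 (log2 1.51 ± 0.11, adjusted p = 2.97e-07). The value for Aβ42 was 1.36 without replicate 1.

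Icam2, a ligand of the Itgal integrin carried by endothelium and leukocytes, was not called higher in either cell type. In the microglia it measured 15.3, 14.1 and 15.9 CPM in the control libraries, 7.997, 6.84 and 6.16 with Aβ42 and 7.72, 5.82 and 6.89 with Aβ40, so that all fibril libraries were below all control libraries. It fell with Aβ42 (log2 −1.17 ± 0.16, adjusted p = 5.67e-05; −1.22 without replicate 1) and with Aβ40 (log2 −1.16 ± 0.18, adjusted p = 2.83e-04). The summed endothelial markers went from 191 ± 1.72 CPM in control microglia to 59.0 ± 9.31 with Aβ42 and 107 ± 11.9 with Aβ40. Flt1 carried most of this, at 157, 37.2 and 72.0 CPM, and Cldn5 and Emcn were at 0. The list went both ways, with 3 of 6 tested genes lower and 1 higher with Aβ42 (26.6% and 27.1% of all genes) and 2 lower and 1 higher with Aβ40 (21.4% and 19.6%), and medians of −0.72 and −0.13. The 10 microglial markers fell as a list in the same libraries. Of them 8 were lower with Aβ42 and 10 with Aβ40, none higher, with medians of −2.22 and −2.47. The part of the genes of either list in the fall of Icam2 was not tested. In the astrocytes Icam2 had 5, 12 and 31 counts in the control libraries, 25, 11 and 12 with Aβ42 and 13, 48 and 32 with Aβ40, and the groups overlapped on the CPM scale. No change was called, and the 95% intervals of the log2 fold change were −1.35 to 0.18 with Aβ42 and −0.77 to 0.64 with Aβ40.

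**Figure D2:**
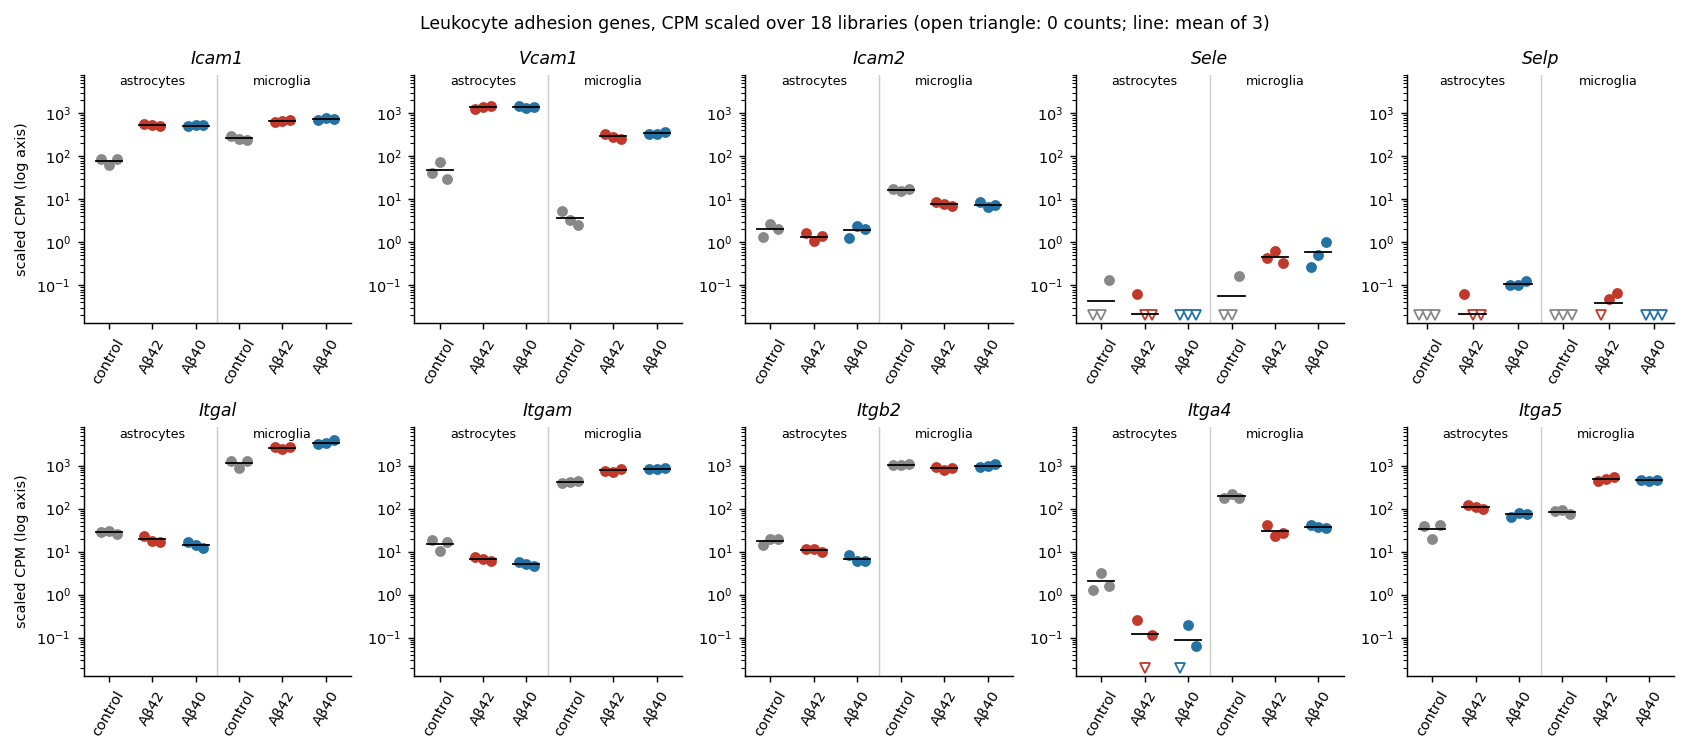
Level of each member in every library, on a log scale of CPM scaled over all 18 libraries, by cell type and treatment, with lines at the means of 3 libraries and open triangles for 0 counts. Vcam1 is near the bottom of its range in the control microglia and highest in the astrocytes with fibrils. The selectins have few or no counts, and only Sele in microglia Aβ42 replicates 2 and 3 is above the limit of 3 counts.

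The selectins were hardly detected. Sele had 0, 0 and 2 counts in the control astrocytes, 1, 0 and 0 with Aβ42 and 0, 0 and 0 with Aβ40. In the microglia it had 0, 0 and 1 counts in the control libraries, 1, 13 and 5 with Aβ42 and 1, 2 and 2 with Aβ40. Only microglia Aβ42 replicates 2 and 3, the deepest microglia libraries, were above the limit of 3 counts. The summed counts of 19 with Aβ42 and 1 in the control gave a ratio of 8.91 with a 95% counting interval of 1.42 to 370.2, and those of 5 with Aβ40 and 1 a ratio of 9.37 (1.05 to 443). In a fit without the filter on low counts Sele had a log2 fold change of 2.80 ± 0.99 with Aβ42 (adjusted p = 0.0303) and 2.88 ± 1.21 with Aβ40 (adjusted p = 0.0837). Selp, stored in platelets and endothelium, had 1, 2 and 2 counts in the Aβ40 astrocytes, 1 in the Aβ42 astrocytes and 2 in the Aβ42 microglia. It had 0 in the control libraries of both cell types and in the Aβ40 microglia. These zeros allow up to 0.140 unscaled CPM over the astrocyte controls, 0.150 over the microglia controls and 0.278 over the Aβ40 microglia (3 counts of the total).

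Itgal and Itgam moved in opposite directions in the cell types. Itgal, which pairs with Itgb2 in the receptor for Icam1 and Icam2, measured 1177, 781 and 1179.6 CPM in the control microglia, 2451, 2103 and 2379.7 with Aβ42 and 2790.0, 2981 and 3553 with Aβ40. All Aβ40 libraries were above all Aβ42 libraries and these above all control libraries. It rose 2.21-fold with Aβ42 (log2 1.14 ± 0.16, adjusted p = 8.31e-05) and 2.97-fold with Aβ40 (log2 1.57 ± 0.16, adjusted p = 7.47e-06). Itgam, the other partner of Itgb2, measured 348, 372 and 395 CPM in the control microglia, 698, 642 and 738 with Aβ42 and 764, 750.4 and 783 with Aβ40, in the same order of groups without overlap. It rose 1.86-fold (log2 0.90 ± 0.10, adjusted p = 8.71e-06) and 2.06-fold (log2 1.04 ± 0.10, adjusted p = 3.11e-06). Their common partner Itgb2 was not called higher. It measured 909.9, 908 and 991 CPM in the control microglia, 868, 685 and 781 with Aβ42 and 833, 884 and 986 with Aβ40, where the Aβ42 libraries lay below the control libraries and the Aβ40 libraries overlapped them. The log2 fold change was −0.27 ± 0.11 with Aβ42 (adjusted p = 0.0603) and −0.06 ± 0.11 with Aβ40 (adjusted p = 0.729), neither called. Without replicate 1 the former became −0.36 (adjusted p = 0.00352), a call, as it did with library totals alone (−0.29, adjusted p = 0.0160). Without that library Itgal was 1.09 and Itgam 0.89.

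The rise of Itgal and Itgam in the microglia stood beside a fall of the microglial markers as a list. Summed over the 10 markers the libraries held 6184, 6056 and 6997 CPM in the control, 1709, 1404 and 1598 with Aβ42 and 1607, 1551 and 1656 with Aβ40. Of the 10, 8 were lower with Aβ42 and 10 with Aβ40, none higher, with median log2 fold changes of −2.22 and −2.47. Csf1r was the largest part in each control library and Ptprc, the common leukocyte antigen, in each Aβ40 library. With Aβ42 it was Ptprc in replicate 1 and Tyrobp in replicates 2 and 3. The neutrophil genes S100a8 and S100a9, each under 1 CPM in every control library, were called higher with both fibrils. The part of a change in cell make-up in the values of Itgal, Itgam and Itga4 in the microglia was not tested.

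In the astrocytes the same 3 subunits were lower with fibrils. Itgam measured 19.8, 10.8 and 18.1 CPM in the control libraries, 8.17, 7.28 and 6.25 with Aβ42 and 5.92, 5.51 and 4.91 with Aβ40. The control libraries were the highest and did not overlap the others. It fell with Aβ42 (log2 −1.16 ± 0.22, adjusted p = 0.00176) and Aβ40 (log2 −1.59 ± 0.22, adjusted p = 2.47e-04). Itgb2 measured 15.3, 21.3 and 21.6 CPM in the control, 12.5, 12.1 and 10.2 with Aβ42 and 8.52, 6.37 and 6.31 with Aβ40, with no overlap between any of the groups. Its log2 fold change was −0.75 ± 0.19 with Aβ42 (adjusted p = 0.00881) and −1.49 ± 0.19 with Aβ40 (adjusted p = 1.29e-04). Itgal measured 29.8, 31.8 and 28.5 CPM in the control, 25.3, 18.3 and 17.8 with Aβ42 and 17.9, 15.1 and 12.8 with Aβ40. The control libraries were again above the others. The fall with Aβ40 was −0.98 ± 0.18 on the log2 scale (adjusted p = 0.00172). That with Aβ42, −0.54 ± 0.18 (adjusted p = 0.0363), was near the threshold. It was not called in a fit of the 2 groups alone (adjusted p = 0.0582). Nor was it called without control replicate 1 (0.0753), Aβ42 replicate 2 (0.143) or 3 (0.126), or Aβ40 replicate 2 (0.0551).

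These subunits are leukocyte genes, and the microglial markers fell in the astrocyte libraries as well. Their sums were 394, 344 and 401 CPM in the control astrocytes, 117, 125 and 120.1 with Aβ42 and 123, 109.9 and 127 with Aβ40. With each fibril 9 of the 10 were lower and none higher, with median log2 fold changes of −3.38 and −3.16. Csf1r, at 124 CPM, was the largest part in the control. None of the 10 was at 0 in a group. The part of the microglial RNA in the fall of Itgal, Itgam, Itgb2 and Itga4 was not tested, and in bulk RNA fewer cells of a type and less RNA per cell cannot be told apart.

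**Figure D3:**
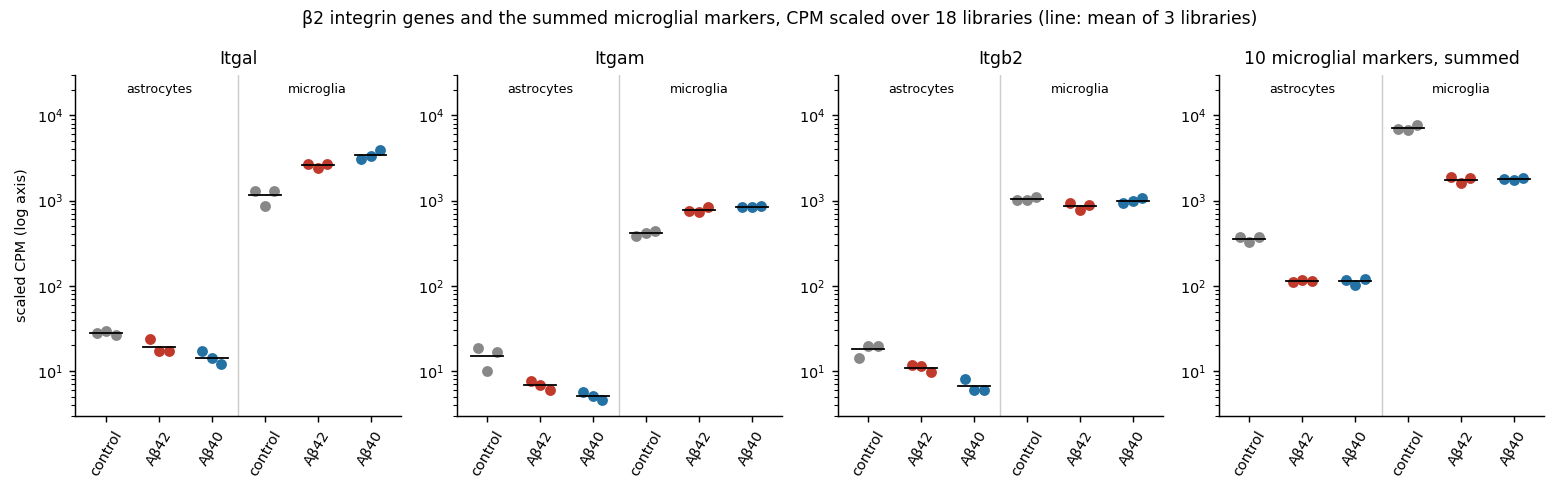
Levels of Itgal, Itgam and Itgb2 and the summed 10 microglial markers in every library (points; lines are means of 3; log axes, CPM scaled over 18 libraries). In the astrocytes all are lower with fibrils, while in the microglia the marker sum is lower and Itgal and Itgam are higher.

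Itga4, the subunit that binds Vcam1, fell in both cell types while its ligand rose. In the microglia it measured 161, 199.9 and 160.0 CPM in the control libraries, 38.0, 20.1 and 23.6 with Aβ42 and 36.7, 32.7 and 33.1 with Aβ40. Every fibril library lay far below every control library. It fell 6.84-fold with Aβ42 (log2 −2.77 ± 0.19, adjusted p = 2.06e-07) and 5.06-fold with Aβ40 (log2 −2.34 ± 0.20, adjusted p = 1.24e-06), and the former was −2.99 without replicate 1. In the astrocytes the counts were low, with 5, 14 and 25 in the control libraries, 4, 0 and 1 with Aβ42 and 0, 4 and 1 with Aβ40. The sum of 44 counts in the control stood against 5 with each fibril. The level in the control was 13.1 times that with Aβ42 (95% counting interval 5.22 to 42.4) and 17.4 times that with Aβ40 (6.90 to 56.1). The fit gave log2 fold changes of −3.68 ± 0.67 (adjusted p = 0.00136) and −4.05 ± 0.66 (adjusted p = 7.11e-04). They rested on single libraries for their size, with −4.95 without Aβ42 replicate 1 and −5.30 without Aβ40 replicate 2.

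Itga5, the fibronectin receptor subunit, rose in both cell types. In the microglia it measured 79.5, 82.9 and 67.3 CPM in the control libraries, 394, 425 and 485 with Aβ42 and 419, 398 and 418 with Aβ40. The fibril libraries lay above all control libraries and overlapped each other. The rise was 5.69-fold with Aβ42 (log2 2.51 ± 0.12, adjusted p = 6.49e-09) and 5.38-fold with Aβ40 (log2 2.43 ± 0.12, adjusted p = 1.10e-08), and the former 2.57 without replicate 1. In the astrocytes it measured 42.02, 21.5 and 45.6 CPM in the control, 132, 114 and 99.4 with Aβ42 and 68.0, 86.1 and 78.7 with Aβ40. Control replicate 2 was the lowest library, and every Aβ42 library was above every Aβ40 library. The gene rose 3.14-fold with Aβ42 (log2 1.65 ± 0.24, adjusted p = 2.98e-04) and 2.11-fold with Aβ40 (log2 1.08 ± 0.24, adjusted p = 0.00513).

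Itgb1, the shared partner of Itga4 and Itga5, measured 605 ± 50.4 CPM in control astrocytes (mean ± SD, n = 3), 592 ± 61.3 with Aβ42 and 569 ± 52.0 with Aβ40. In the microglia it measured 996 ± 60.7, 1069.6 ± 142 and 1156 ± 85.1 CPM. It was not called in any comparison of fibrils with control, with log2 fold changes of −0.03 and −0.09 in astrocytes and 0.10 and 0.22 in microglia for Aβ42 and Aβ40. The last was called in a fit of the 2 groups alone (0.22, adjusted p = 0.0459) and without microglia Aβ42 replicate 1 (0.21, adjusted p = 0.0404). Fn1, the gene of fibronectin, the ligand of Itga5, measured 1278 ± 114 CPM in control astrocytes and 831 ± 137 in control microglia. It was not called either, with 0.06 and −0.09 in astrocytes and −0.02 and 0.20 in microglia. Itgb7, the other partner of Itga4, averaged at most 0.612 CPM in a group and was not tested.

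Untreated, the cell types differed in all 8 tested members (edgeR, 18 libraries, 11581 genes). Vcam1 was higher in astrocytes and the other 7 lower, where 34.5% of all genes were higher and 34.2% lower. On CPM scaled over the 18 libraries, Vcam1 measured 41.1, 72.1 and 30.5 in the control astrocytes and 5.50, 3.24 and 2.53 in the control microglia. The groups did not overlap, and the astrocytes were 12.1-fold higher (log2 3.59 ± 0.30, adjusted p = 2.18e-09). Itgb2 measured 14.4, 19.99 and 19.98 CPM in the astrocytes and 1012, 1014 and 1095 in the microglia, a difference of −5.82 ± 0.16 on the log2 scale (adjusted p = 1.21e-15). Itgal differed by −5.38, Itgam by −4.76 and Itga4 by −6.65. Icam2 differed by −3.04, Icam1 by −1.73 and Itga5 by −1.31. In each of these 7 genes every astrocyte library lay below every microglia library. Scaling by library totals alone moved the median of all genes from 0.00363 to 0.28 and the share of calls that were higher from 50.2% to 62.6%, and the 8 directions and calls were the same. Itgb1 was lower in the untreated astrocytes (log2 −0.97, adjusted p = 7.64e-07) and Fn1 higher (0.37, adjusted p = 0.0207).

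The order of the 6 groups differed between the genes on that scale. Vcam1 was highest in the astrocytes with Aβ40 and Aβ42, at 1419 ± 91.6 and 1409.5 ± 114 CPM (mean ± SD, n = 3), which did not differ beyond their spread. The microglia with Aβ40 and Aβ42 followed at 349 ± 20.7 and 292 ± 39.8, whose libraries overlapped, then the control astrocytes at 47.9 ± 21.6 and the control microglia at 3.76 ± 1.55. Icam1 was highest in the microglia with Aβ40 and Aβ42, at 749.7 ± 39.2 and 675 ± 34.98 CPM, without overlap. The astrocytes with Aβ42 and Aβ40 were next at 539 ± 30.4 and 519 ± 18.8, within each other's spread, and the control microglia at 262 ± 32.4 and control astrocytes at 79.2 ± 13.8 came last. Itga5 was highest in the microglia with Aβ42 and Aβ40, at 489 ± 61.7 and 457 ± 11.5 CPM, which overlapped. It had 109 ± 14.1 in the astrocytes with Aβ42, 85.1 ± 9.55 in the control microglia and 73.3 ± 7.68 in the astrocytes with Aβ40, the last pair overlapping, and 34.0 ± 11.98 in the control astrocytes. For Itgal, Itgam, Itgb2, Itga4 and Icam2, each microglia group was above each astrocyte group.

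Whether a fibril changed a gene differently in astrocytes and microglia was tested by an interaction term in the 18-library fit. For Aβ42 the change of 1 member was more positive in the astrocytes and that of 4 more negative, where 17.9% and 19.3% of all genes were. For Aβ40 it was 2 and 5 members, against 16.5% and 16%. Icam1 rose more in the astrocytes, by 1.40 ± 0.17 on the log2 scale with Aβ42 (adjusted p = 4.09e-06) and 1.19 ± 0.17 with Aβ40 (adjusted p = 2.92e-05). Vcam1 rose more in the microglia, where it started lower, with differences of −1.32 ± 0.37 (adjusted p = 0.00854) and −1.57 ± 0.37 (adjusted p = 0.00291). Itga5 also rose more in the microglia, with differences of −0.86 ± 0.27 (adjusted p = 0.0160) and −1.33 ± 0.27 (adjusted p = 7.28e-04). The Aβ42 difference of Itga5 was not called without astrocyte control replicate 3 (adjusted p = 0.0733).

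Among the called differences those of Itgal and Itgam were the largest. Itgal differed by −1.68 ± 0.24 with Aβ42 (adjusted p = 2.38e-05) and −2.53 ± 0.24 with Aβ40 (adjusted p = 2.12e-07), and Itgam by −2.05 ± 0.22 (adjusted p = 6.59e-07) and −2.62 ± 0.22 (adjusted p = 3.95e-08). Itgb2 differed by −1.42 ± 0.20 with Aβ40 (adjusted p = 2.44e-05). With Aβ42 its difference was −0.48 ± 0.20 (adjusted p = 0.0695), not called. It was called with DESeq2's size factors (adjusted p = 0.0485), library totals (0.0477), DESeq2's Wald test (0.0286) and a filter of 10 counts (0.0399), and without astrocyte control replicate 1 (0.0133). Icam2 had 0.58 ± 0.35 with Aβ42 (adjusted p = 0.217) and a called 1.11 ± 0.35 with Aβ40 (adjusted p = 0.0189). The latter was not called without astrocyte control replicate 1 (0.0508), astrocyte Aβ40 replicate 2 (0.0965) or microglia Aβ40 replicate 2 (0.0560). Itga4 was not called with Aβ42 (−0.89 ± 0.69, adjusted p = 0.338) or Aβ40 (−1.65 ± 0.69, adjusted p = 0.0737), the latter called by DESeq2's Wald test (0.0434) and without astrocyte Aβ40 replicate 2 (0.0408). Over fits without single libraries the Aβ42 difference of Itga4 ran from −2.13 (without astrocyte Aβ42 replicate 1) to −0.41 (without replicate 2), and the Aβ40 difference from −2.89 (without astrocyte Aβ40 replicate 2) to −1.34 (without replicate 1). Without microglia Aβ42 replicate 1 the count for Aβ42 was again 1 and 4, where 20.1% and 22.1% of all genes were.

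The fibrils were then compared with each other, the comparison that asks whether the peptides act differently. In the astrocytes 0 of 8 members were called by edgeR, where 0.0599% of genes were higher and 0.0257% lower with Aβ42, and 0 by DESeq2, where 0.642% and 0.482% were. In edgeR 3 had an unadjusted p under 0.05. These were Itgb2 (log2 0.74 ± 0.19, adjusted p = 0.236), Itga5 (0.57 ± 0.23, adjusted p = 0.659) and Itgal (0.43 ± 0.18, adjusted p = 0.695). Every Aβ42 library was above every Aβ40 library for Itgb2, Itga5 and Itgam. In a fit of the 2 groups alone Itgb2 and Itga5 were called, at 0.75 (adjusted p = 0.0426) and 0.57 (adjusted p = 0.0428), where 1.12% and 1.18% of all genes were higher and lower. They were called as well without astrocyte control replicate 2 (shares of 0.961% and 0.911%), at 0.75 (adjusted p = 0.0499) and 0.57 (adjusted p = 0.0288). For Icam1 the 95% interval of the difference was −0.25 to 0.35 and for Vcam1 −0.53 to 0.50, so that differences within those intervals are not excluded.

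In the microglia 0 of 8 were called by edgeR, although 11.3% of all genes were higher and 9.01% lower with Aβ42, and 0 by DESeq2, where 11.3% and 9.83% were. In edgeR 1, Itgal, had an unadjusted p under 0.05. Itgal differed by −0.43 ± 0.16 (adjusted p = 0.0707), Itga4 by −0.43 ± 0.21 (0.136) and Vcam1 by −0.27 ± 0.16 (0.225). Itgal was called without control replicate 2 (−0.43, adjusted p = 0.0432). The share of all genes called depended on the libraries. With the 2 groups alone 0.566% and 0.451% were higher and lower, and with the replicate number in the model 3.69% and 3.25%. The shares were 0.751% and 0.357% without Aβ42 replicate 2 and 0.640% and 0.265% without replicate 3, and 0.620% and 0.521%, 0.754% and 0.628%, and 0.755% and 0.620% without Aβ40 replicates 1, 2 and 3 in turn. Without control replicate 1 they were 5.49% and 4.08%, without 2 8.38% and 6.19% and without 3 6.19% and 4.80%. All these shares include the library that stood apart. Without it 4 members were lower with Aβ42 than with Aβ40, when 27.1% of all genes were higher and 26.8% lower. The members were Itgal (−0.47, adjusted p = 0.0173), Vcam1 (−0.40, adjusted p = 0.00629), Itgb2 (−0.30, adjusted p = 0.0165) and Itga4 (−0.66, adjusted p = 7.41e-04). That fit set Aβ42 libraries of 22274367 and 17687416 counts against Aβ40 libraries of 4104702, 4425805 and 2271834. Fibril and depth thus went together in it, and the part of depth was not tested. For Itga4, replicates 2 and 3 of Aβ42 were the lowest microglia libraries and replicate 1 lay just above those of Aβ40. Against the control, all 8 members were called without that library, 5 higher and 3 lower, when 34.6% and 35.7% of all genes were.

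**Figure D4:**
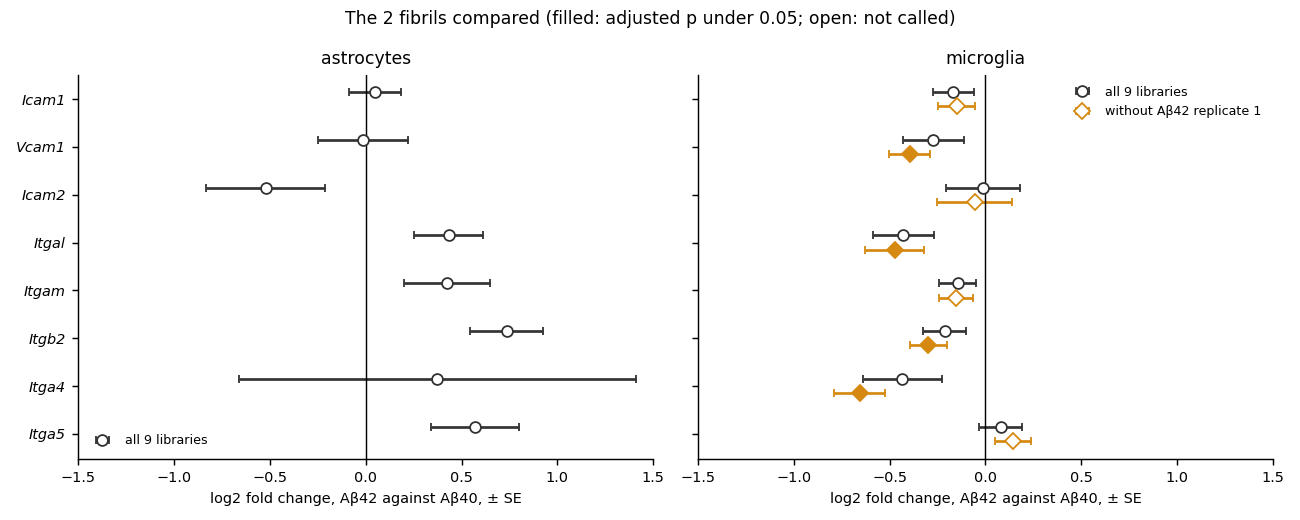
Log2 difference between Aβ42 and Aβ40 fibrils for each tested member with its standard error, in the astrocytes, in the microglia, and in the microglia without Aβ42 replicate 1. No member passes the threshold in the fits of all 9 libraries, and 4 do in the last, where each Aβ42 library is deeper than each Aβ40 library.

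Related genes were taken as 5 lists and are described by their counts and their median log2 fold change. Over all tested genes the medians were −0.00473 and 0.00171 in astrocytes and 0.00964 and 0.00536 in microglia for Aβ42 and Aβ40, and the shares of all genes called are those given above. The list of other integrin subunits held 21 genes, of which 15 were in the tables. Of its 11 genes tested in astrocytes, 2 were higher and 7 lower with Aβ42 and 2 higher and 6 lower with Aβ40, with medians of −0.74 and −0.70. Of 10 in microglia, 4 were higher and 2 lower with Aβ42 and 3 higher and 2 lower with Aβ40, with medians of 0.13 and 0.33. In astrocytes Itgb8, which activates TGF-β, rose with Aβ42 (1.65 ± 0.20) and Aβ40 (1.52 ± 0.20), and Itga7, a laminin receptor subunit, by 1.67 and 1.49. The largest falls were in Itga11, a collagen receptor subunit (−4.04 ± 0.62 and −3.86 ± 0.57, from 3.18 ± 0.805 CPM), and Itgb6 (−2.58 and −1.40). The fall of Itga11 was −5.55 without Aβ42 replicate 1 and −4.76 without Aβ40 replicate 3. In microglia Itgb4 rose (2.25 ± 0.24 and 1.90 ± 0.27) and so did Itgb8 (1.04 and 1.51). Itga6, the partner of Itgb4, fell from 331 ± 18.04 CPM (−3.10 ± 0.15 and −2.61 ± 0.15), and Itgb5 fell as well (−3.01 ± 0.19 and −3.44 ± 0.21). Itgad was in the tables but too low to test. Itgax, also on the list, was not found under that symbol and has no value here.

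The list of other immunoglobulin-family and junction molecules held 16 genes. Of its 15 genes tested in astrocytes, 2 were higher and 5 lower with Aβ42 and 2 higher and 5 lower with Aβ40, with medians of −0.25 and −0.21. Of 14 in microglia, 8 were higher and 4 lower with Aβ42 and 9 higher and 3 lower with Aβ40, with medians of 0.47 and 0.71. In astrocytes Madcam1, an addressin bound by the integrin of Itga4 and Itgb7, rose from 0.187 ± 0.162 CPM to 5.72 ± 0.907 with Aβ42 (4.61 ± 0.40) and 7.35 ± 0.774 with Aβ40 (4.97 ± 0.38). Without control replicate 3 these were 5.36 and 5.72. Cd47, a signal against phagocytosis, rose (1.55 ± 0.19 and 1.43 ± 0.19). Jam2 fell with both fibrils (−1.39 ± 0.12 and −1.14 ± 0.12), L1cam with Aβ42 (−1.58 ± 0.31) and Ncam1 with Aβ40 (−1.06 ± 0.14). In microglia Esam, a junction molecule of endothelium and platelets, rose from 11.6 ± 1.56 CPM to 207 ± 37.4 with Aβ42 (4.15 ± 0.16) and 127 ± 1.81 with Aβ40 (3.44 ± 0.16). Cd99 rose with Aβ42 (1.59 ± 0.25) and Jam3 with Aβ40 (0.92 ± 0.17). Sirpa, the receptor of Cd47, fell from 2088 ± 96.5 CPM (−2.20 ± 0.11 and −2.09 ± 0.11), Cadm1 fell with Aβ42 (−1.84 ± 0.16) and Icam5 with Aβ40 (−2.40 ± 0.38).

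The list of selectin ligands and the enzymes that build them held 14 genes. Of its 11 genes tested in astrocytes, 4 were higher and 4 lower with Aβ42 and 3 higher and 2 lower with Aβ40, with medians of −0.12 and −0.10. Of 12 in microglia, 4 were higher and 5 lower with Aβ42 and 3 higher and 6 lower with Aβ40, with medians of −0.09 and −0.15. Cd44, the hyaluronan receptor, rose in astrocytes (1.88 ± 0.16 and 1.63 ± 0.16) and in microglia (2.11 ± 0.19 and 2.43 ± 0.19). The sialyltransferase St3gal6 rose in astrocytes (1.36 and 1.22) and St3gal4 in microglia (0.66 and 0.80). Selplg, the main ligand of Selp, fell in astrocytes (−2.62 ± 0.38 and −2.78 ± 0.37) and in microglia, from 79.8 ± 2.40 CPM (−1.58 ± 0.17 and −1.45 ± 0.18). As a list the microglial markers also fell in both cell types, in astrocytes with medians of −3.38 and −3.16. Their part in the fall of Selplg was not tested. Gcnt1 fell in astrocytes (−3.14 ± 0.43 and −2.29 ± 0.38). Fut7, the fucosyltransferase that completes the selectin ligands of leukocytes, fell in microglia from 25.7 ± 4.54 CPM (−3.77 ± 0.26 and −3.78 ± 0.33). Spn fell there too (−2.64 ± 0.40 and −1.73 ± 0.48), not called with Aβ40 without Aβ40 replicate 1 (adjusted p = 0.0591) or 2 (0.0815).

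The list of integrin activation and adaptor genes held 23 genes, of which 21 were in the tables. Of its 19 genes tested in astrocytes, 2 were higher and 5 lower with Aβ42 and 1 higher and 6 lower with Aβ40, with medians of −0.18 and −0.11. Of 18 in microglia, 4 were higher and 11 lower with Aβ42 and 3 higher and 9 lower with Aβ40, with medians of −0.40 and −0.20. In astrocytes the focal adhesion kinase Ptk2 had 0.47 ± 0.12 with Aβ42 and 0.38 ± 0.12 with Aβ40, and Rap1b, a GTPase that activates integrins, 0.47 ± 0.16 with Aβ42 (adjusted p = 0.0458). The call of Rap1b was lost under library totals (adjusted p = 0.105), under a filter of 10 counts, with the replicate number in the model, and with the 2 groups alone. It was also lost without control replicate 1 (0.131) or 3 (0.0785), Aβ42 replicate 2 (0.115) or 3 (0.150) or Aβ40 replicate 1 (0.0581) or 3 (0.0697). That of Ptk2 with Aβ40 was lost under library totals (adjusted p = 0.0909), with the replicate number in the model, with the 2 groups alone and without control replicate 1 (0.0938), Aβ42 replicate 1 (0.0593), 2 (0.0647) or 3 (0.0579) or Aβ40 replicate 1 (0.124) or 3 (0.0958). Fermt3, the kindlin of blood cells that Itgb2 integrins need, fell in astrocytes (−1.97 ± 0.38 and −2.28 ± 0.38), as did Apbb1ip, which links Rap1 to talin (−1.70 ± 0.23 and −1.81 ± 0.22). The microglial markers fell in these astrocyte libraries too, with medians of −3.38 and −3.16. Their part in the fall of Fermt3 and Apbb1ip was not tested. In microglia Rassf5, the Rap1 effector that acts on the Itgal integrin, fell from 70.6 ± 1.99 CPM (−3.20 ± 0.17 and −2.86 ± 0.18) and Apbb1ip also fell (−1.29 ± 0.19 and −1.28 ± 0.20). Itgb1bp1 (1.12 ± 0.18) and Src (0.76 ± 0.19) rose with Aβ42, and Rap1b (0.58 ± 0.10) and Ptk2b (0.54 ± 0.11) with Aβ40.

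The list of soluble and matrix ligands of integrins held 16 genes, of which 14 were in the tables. Of its 12 genes tested in astrocytes, 4 were higher and 3 lower with Aβ42 and 4 higher and 2 lower with Aβ40, with medians of −0.23 and −0.05. Of 12 in microglia, 3 were higher and 4 lower with Aβ42 and 4 higher and 4 lower with Aβ40, with medians of −0.06 and 0.19. C3, whose fragment is bound by the integrin of Itgam and Itgb2, rose in astrocytes from 41.1 ± 6.86 CPM to 2993 ± 9.47 with Aβ42 (6.18 ± 0.15) and 3404 ± 89.3 with Aβ40 (6.37 ± 0.16). Fgg, a fibrinogen chain, rose from 0.197 ± 0.1796 CPM in astrocytes (2.07 ± 0.59 and 2.33 ± 0.56) and from 0.154 ± 0.0377 in microglia (4.46 ± 0.49 and 4.53 ± 0.55). In astrocytes its values without control replicate 3 were 3.06 and 3.32, and its call with Aβ42 was lost without Aβ42 replicate 2 (adjusted p = 0.0526). Osteopontin, Spp1, fell in astrocytes (−0.81 ± 0.13 and −1.20 ± 0.13), Thbs1 with Aβ42 (−1.10 ± 0.16) and Fga with Aβ40 (−1.03 ± 0.35, adjusted p = 0.0415). The call of Fga was lost with DESeq2's Wald test (adjusted p = 0.140), without the filter, with the replicate number in the model and without control replicate 1 (0.0775), 2 (0.0639) or 3 (0.0870), Aβ42 replicate 3 (0.0608) or Aβ40 replicate 1 (0.0884), 2 (0.108) or 3 (0.104). In microglia Thy1, bound by Itgb2 and Itgb3 integrins, rose (2.88 ± 0.33 and 3.71 ± 0.33), and Thbs1 (−2.19 ± 0.28 and −1.94 ± 0.29) and Ctgf (−1.55 ± 0.30 and −1.77 ± 0.34) fell.

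Without microglia Aβ42 replicate 1 the counts with Aβ42 against control in microglia were 4 higher and 2 lower of 11 for the integrin subunits, 9 higher and 5 lower of 15 for the immunoglobulin-family and junction molecules and 4 higher and 5 lower of 12 for the selectin ligands. They were 4 higher and 12 lower of 19 for the activation genes and 4 higher and 4 lower of 12 for the soluble and matrix ligands. Of all genes 34.6% and 35.7% were then higher and lower. The median of the integrin subunits was −0.01 and had the opposite sign. The counts with Aβ40 against control, from the same fit, were 7 higher and 3 lower of 11 for the integrin subunits, 10 higher and 3 lower of 15 for the immunoglobulin-family and junction molecules and 5 higher and 6 lower of 12 for the selectin ligands. For the activation genes they were 5 higher and 10 lower of 19 and for the soluble and matrix ligands 4 higher and 4 lower of 12, against 26.4% and 27.6% of all genes. The genes named above for the largest changes with Aβ42 were all called in that fit, at 2.41 for Itgb4, 0.92 for Itgb8, −3.26 for Itga6 and −2.84 for Itgb5 on the log2 scale among the integrin subunits, 4.26 for Esam, 1.86 for Cd99, −2.30 for Sirpa and −1.999 for Cadm1 in the second list and 1.82 for Cd44, 0.72 for St3gal4, −3.80 for Fut7 and −2.55 for Spn among the selectin ligands, where Selplg had −1.73. They were 1.25 for Itgb1bp1, 0.92 for Src, −3.28 for Rassf5 and −1.48 for Apbb1ip among the activation genes and 4.49 for Fgg, 2.72 for Thy1, −2.57 for Thbs1 and −1.82 for Ctgf among the soluble and matrix ligands.

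**Figure D5:**
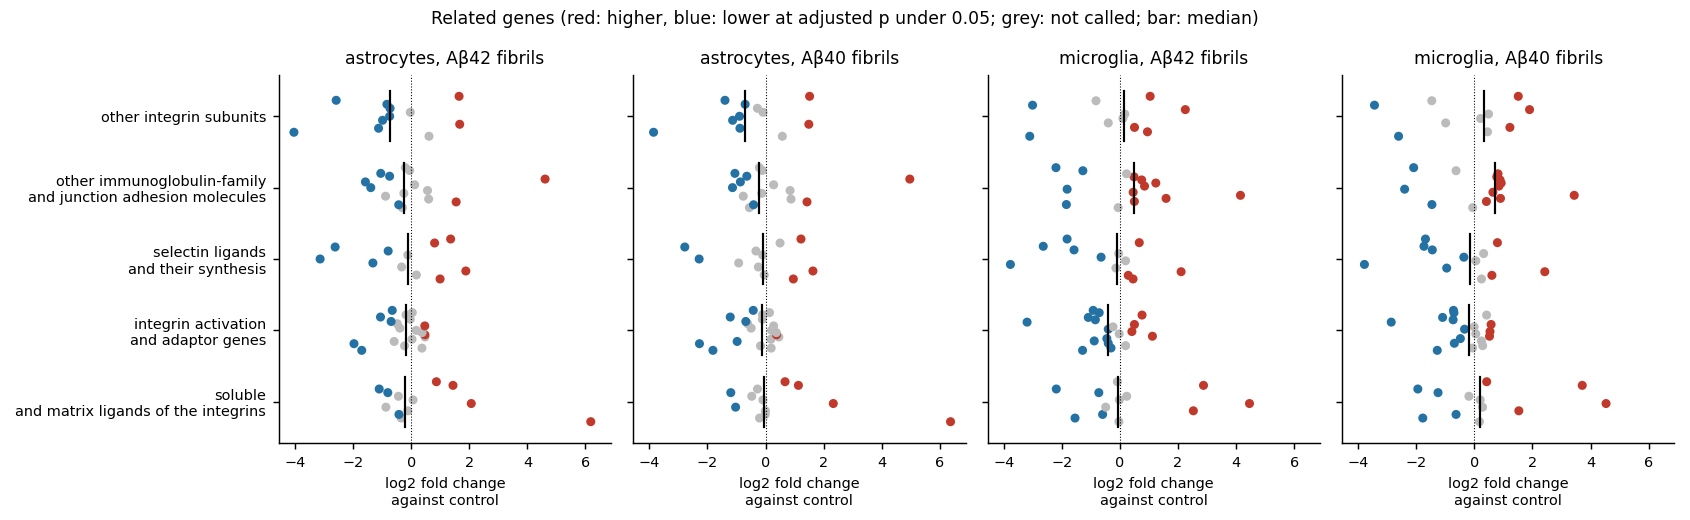
Log2 fold change of every tested gene of the 5 lists of related genes in the 4 comparisons of fibrils with control, coloured where called, with bars at the medians. The other integrin subunits lie mostly below 0 in the astrocytes, and each list holds genes on both sides of 0.

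The genes whose pattern over the 6 group means was nearest to that of Vcam1, by the root mean square difference of centred log2 CPM among 11581 genes in 18 libraries, were Asgr1 (0.29), Elf3 (0.66) and C1s (0.72). Asgr1 encodes a subunit of the asialoglycoprotein receptor, Elf3 an epithelial ETS factor and C1s a protease of the complement pathway. Nearest to Icam1 were Piezo1, a mechanically gated channel (0.18), and the MHC class I genes RT1-N3 (0.19) and RT1-CE14 (0.21). The latter belong to a family of similar sequences, whose reads may be shared between its genes. No member was among the nearest genes of either.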

How the data were processed

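The authors made libraries with the TruSeq Stranded mRNA kit, aligned the reads to rn5 with STAR and deposited, for each library, a table of whole-number counts of reads per gene symbol, not normalized. Salmon and DESeq2 are also named by the authors, without versions, and the strand setting of the counting is not stated. Counts outside genes were left out. From the deposited counts, CPM, log2 fold changes, standard errors and p-values were computed here with edgeR 4.0.16 (TMM, filterByExpr, quasi-likelihood test, Benjamini-Hochberg adjustment over all tested genes) in R 4.3.3. The 9 libraries of a cell type were fitted together as 3 groups. A fit of all 18 libraries served the comparisons of cell types. The procedure was also run on simulated data, and no result of that run is given here. Alternatives were DESeq2 1.42.0 size factors, library totals, DESeq2's Wald test, no filter, 10 counts in every library, 5-fold or more, the 2 groups alone, a replicate block and leaving out each library. List counts without microglia Aβ42 replicate 1 were added after the data were seen. Members and lists were chosen with earlier results of these data known. All members are named, and from each list the 2 genes with the largest rise and the 2 with the largest fall among those called in each comparison of fibrils with control, with Itgb1, Itgb7, Itgax, Itgad, Selplg and Fn1. Of the related and marker lists 3 genes are counted in them but not reported here.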

Additional observations from a re-analysis of the deposited data

Results flagged for a closer look

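The changes with fibrils differed between astrocytes and microglia in 12 tests of the interaction of cell type and fibril that passed the threshold (edgeR, 18 libraries, adjusted p under 0.05). With Aβ42 the difference, astrocytes minus microglia on the log2 scale, was 1.40 for Icam1, −1.32 for Vcam1, −0.86 for Itga5, −1.68 for Itgal and −2.05 for Itgam. With Aβ40 it was 1.19 for Icam1, −1.57 for Vcam1, −1.33 for Itga5, 1.11 for Icam2, −2.53 for Itgal, −2.62 for Itgam and −1.42 for Itgb2. Both sets use the same control libraries. As a list the microglial markers fell with both fibrils in both cell types. Their medians for Aβ42 and Aβ40 were −3.38 and −3.16 in astrocytes and −2.22 and −2.47 in microglia. The adjusted p of each difference stands with the response differences above, and the cause of none was tested.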

How the results depend on the processing

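Of 1115 log2 fold changes of members under other settings, 1077 kept their direction and their side of the threshold, 9 lost a call, 18 gained one and 11 changed sign. Of 1494 for related genes these numbers were 1445, 32, 4 and 13. Under the rule of 5-fold or more, 3 members were called in each of the 4 comparisons of fibrils with control, 2 higher and Itga4 lower, by its construction fewer than at any fold. Of all genes 3.03% were higher and 3.24% lower under that rule in astrocytes with Aβ42, 2.82% and 2.6% with Aβ40, and in microglia 3.69% and 2.57% with Aβ42 and 3.36% and 2.47% with Aβ40. With the 2 groups alone, 2 members differed between Aβ42 and Aβ40 in astrocytes, when 1.12% and 1.18% of all genes were higher and lower. Leaving out single libraries gave 0 to 2 members there and 0 to 4 in microglia. The 4 were without Aβ42 replicate 1, where each Aβ42 library was deeper than each Aβ40 library. With the replicate number as a block the count of members called was the same in the 6 comparisons within a cell type, while the shares of all genes called were smaller. They were 13.9% and 17.3% (higher and lower) in astrocytes with Aβ42, 12.3% and 15.1% with Aβ40, 24.7% and 25.4% in microglia with Aβ42 and 18.4% and 20.2% with Aβ40. Between the fibrils 0 genes were called in astrocytes and 3.69% and 3.25% in microglia. The labels do not state that equal replicate numbers belong together. Deviations from the group means correlated at −0.53 to 0.36 between astrocyte libraries of equal number and −0.46 to 0.53 between others. In the microglia these ranges were −0.19 to 0.22 and −0.21 to 0.23. The block therefore cannot show what a true pairing would change.

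The values that changed sign had no call. Icam2 differed between the fibrils in microglia by 0.0030 under library totals and 0.027 with the replicate block, and Fn1 had 7.98e-04 with Aβ42 in microglia for the 2 groups alone. Over fits without single libraries the log2 values of such results ranged as follows. Against control they were −0.28 to 0.12 for Icam2 in astrocytes with Aβ40, −0.11 to 0.058 for Itgb1 in astrocytes with Aβ42 and −0.014 to 0.18 in microglia with Aβ42. They were −0.22 to 0.10 for Fn1 in microglia with Aβ42 and −0.13 to 0.0089 for Itgb2 in microglia with Aβ40. Between the fibrils in astrocytes they were −0.067 to 0.050 for Vcam1, −0.90 to 1.62 for Itga4, −0.027 to 0.14 for Itgb1 and −0.41 to 0.41 for Selplg. In microglia they were −0.14 to 0.11 for Icam2, −0.0046 to 0.14 for Itga5 and −0.26 to 0.022 for Selplg. The cause was not tested.

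DESeq2's Wald test moved the median of all genes to −0.16 for the Aβ42 response difference and −0.16 for that of Aβ40, from −0.04 and −0.00654. The medians of the 5 related lists kept their sign under the other scalings in the comparisons of fibrils with control. The filter of 10 counts left Icam2 and Itga4 without a value where astrocytes take part, and the fit of the 2 fibril groups left Itga4 without one in astrocytes. The selectins in both cell types and Itga4 and Icam2 in astrocytes had low counts. Whether depth limits them was not tested.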
